A study of Mus musculus with 17 samples.

Results

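CCCGGG sites in and just upstream of Gfod1, Sdk2 and Gm12474 were examined in whole blood DNA of 17 C57BL/6 mice. Each gene had been picked on measured values, as 1 of its sites had lower methylation in calorically restricted old mice than in freely fed old mice with no overlap between the groups. The members were all sites lying from 2000 bp upstream of the transcription start to the gene end (GENCODE release M1, mm9 assembly) covered by 20 or more reads in 13 or more mice. Of 92 sites in these windows, 28 passed, among 22984 passing sites in the whole series, of which 22561 were autosomal. By gene, 9 of 21 sites passed in Gfod1, 12 of 63 in Sdk2 and 7 of 8 in Gm12474. The difference that chose the genes is therefore given as a description, with no p-value, and the open question was whether it reached the neighbouring sites.

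DNA methylation at CpG is copied at each cell division, and in mammals most CpGs are methylated apart from those in CpG-rich gene starts. Gfod1 encodes a protein with a glucose-fructose oxidoreductase domain. Sdk2 (sidekick 2) encodes a cell adhesion protein of the immunoglobulin superfamily, best known for matching synaptic partners in the retina. Gm12474 is a long intergenic non-coding RNA gene of unassigned function that starts next to, and runs away from, Fam46c, a gene for a non-canonical poly(A) polymerase known for its role in plasma cells.

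In the DREAM assay, DNA is cut with SmaI, which methylation blocks, then with XmaI, which cuts CCCGGG regardless, so that each read end records methylation at 1 site. The mice comprised 5 AL-young (4 months, food ad libitum, 2 females and 3 males), 7 AL-old (29 to 33 months, food ad libitum, 5 females and 2 males) and 5 CR-old (32 to 38 months, caloric restriction begun in early adulthood, 2 females and 3 males). Whole blood is a mixture of cell types whose proportions were not measured, so a change in the cell mix and a change within a cell type cannot be told apart. Libraries held 6407519 to 51612805 reads on genomic sites. The authors' adjustment from spiked standards multiplied the odds of methylation by a factor of 0.896 to 1.13 in AL-young, 0.872 to 3.96 in AL-old and 0.885 to 1.80 in CR-old. A factor of at least 1.3 was found in 5 AL-old mice, all of them females, and in 1 CR-old mouse (06). Raw methylation, the percent of reads at a site that carry the methylated end, is given below unless the adjusted value is named. The deposited raw percent adds 0.5 to the methylated reads and 1 to all reads, so that a site with 0 methylated reads has a value above 0, the more so the fewer its reads.

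The index site of each gene is the member with the most negative difference, CR-old minus AL-old, among members with at least 100 reads in all mice. In Gfod1 (ENSMUSG00000051335.5, chr13:43290888-43399541, minus strand) it lies at chr13:43347559-43347564, in an intron 51979 bp from the gene start. In Sdk2 (ENSMUSG00000041592.9, chr11:113637688-113928360, minus strand) it lies at chr11:113667703-113667708, in a coding exon 260654 bp from the start. In Gm12474 (ENSMUSG00000053957.5, chr3:100293587-100327843, plus strand) it lies at chr3:100299501-100299506, in an intron 5917 bp from the start. The site that had placed Gm12474 among the picked genes is the next one, at chr3:100299698-100299703 and 197 bp away, because the groups did not overlap there.

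The sequences around these sites are shown because each index site stands close to another measured site. They are plus-strand mm9 (NCBIM37), 5′ to 3′, with the CCCGGG sites in capitals. The Gfod1 neighbour spans chr13:43347191-43347310 and the Gfod1 index site chr13:43347502-43347621. The Sdk2 fragment, chr11:113667703-113667825, begins with the index site and ends with its neighbour, as does the Gm12474 fragment, chr3:100299501-100299703. The Sdk2 pair near the gene start, chr11:113923820-113924108, is the one whose group difference ran the other way.
Gfod1 neighbour: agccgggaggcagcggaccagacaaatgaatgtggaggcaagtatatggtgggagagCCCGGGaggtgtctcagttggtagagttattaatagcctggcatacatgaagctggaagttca
Gfod1 index site: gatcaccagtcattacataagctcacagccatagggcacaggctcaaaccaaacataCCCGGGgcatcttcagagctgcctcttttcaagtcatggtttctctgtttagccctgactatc
Sdk2 index fragment: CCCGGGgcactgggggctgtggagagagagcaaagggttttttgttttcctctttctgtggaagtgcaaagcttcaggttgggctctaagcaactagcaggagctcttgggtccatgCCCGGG
Gm12474 index fragment: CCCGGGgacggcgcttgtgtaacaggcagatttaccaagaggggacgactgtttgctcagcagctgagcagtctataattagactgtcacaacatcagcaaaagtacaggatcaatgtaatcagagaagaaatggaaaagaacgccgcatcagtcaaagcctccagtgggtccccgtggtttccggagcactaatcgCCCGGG
Sdk2 start pair: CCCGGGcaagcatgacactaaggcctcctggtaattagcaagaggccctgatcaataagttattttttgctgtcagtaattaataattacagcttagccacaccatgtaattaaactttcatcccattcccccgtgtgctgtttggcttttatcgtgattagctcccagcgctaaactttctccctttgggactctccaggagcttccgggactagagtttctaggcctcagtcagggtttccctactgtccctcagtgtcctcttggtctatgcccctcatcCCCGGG

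The Sdk2 fragment of 123 bp held 2 CpGs, those of the restriction sites themselves, whereas the Gm12474 fragment of 203 bp held 10. In the 200 bp centred on each index site there were 1 CpG for Gfod1, 4 for Sdk2 and 9 for Gm12474. None of these windows met the CpG-rich definition (GC content of at least 50% and observed over expected CpG of at least 0.6), which 14 of the 28 members (50.0%) and 52.1% of all tested sites met.

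At the Gfod1 index site, methylation was 66.63, 76.48, 72.91, 77.48 and 73.65% in the AL-young mice, 73.4% ± 4.25 (SD, n = 5). The AL-old mice had 71.61, 77.86, 82.87, 89.58, 84.2, 63.92 and 81.91% (lowest 63.92, median 81.91, highest 89.58), 78.9% ± 8.62 (SD, n = 7). The CR-old mice had 48.81, 56.72, 27.39, 18.0 and 9.24%, 32.0% ± 20.2 (SD, n = 5). Every CR-old mouse lay below every mouse of both other groups, and the CR-old mice were spread far wider than either. The CR-old mean differed by -46.8 points from the AL-old mean and by -41.4 points from the AL-young mean. Among all 22561 sites, the first of these ranked 4 from the most negative.

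At the Sdk2 index site the AL-young mice had 55.18, 46.17, 55.54, 62.29 and 51.36%, 54.1% ± 5.93 (SD, n = 5). In AL-old the lowest, median and highest values were 52.19, 74.46 and 87.15%, with a mean of 71.7% ± 14.8 (SD, n = 7). CR-old gave 39.41, 43.17, 22.46, 17.1 and 14.14%, 27.3% ± 13.2 (SD, n = 5). The CR-old mice again lay under all others, the closest being CR-old 06 at 43.17% and AL-young 16 at 46.17%. The CR-old mean differed by -44.4 points from AL-old, rank 13 of 22561, and by -26.9 points from AL-young.

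Gm12474 had 2 sites of this kind. At its index site the AL-young mice lay tightly between 72.42 and 75.57%, 73.8% ± 1.14 (SD, n = 5), and the AL-old mice had a similar mean but a far wider range, 57.87 to 96.14%, 74.8% ± 15.3 (SD, n = 7, median 75.39). The CR-old mice had 51.31, 58.36, 26.44, 23.49 and 16.89%, 35.3% ± 18.3 (SD, n = 5), so that CR-old 06 just overlapped the 2 lowest AL-old mice. The mean difference from AL-old was -39.5 points, rank 22. At the site 197 bp further on, AL-young had 66.2% ± 2.60 (SD, n = 5), AL-old 74.8% ± 13.2 (SD, n = 7, 57.4 to 91.73) and CR-old 37.9% ± 14.9 (SD, n = 5, 24.11 to 56.08). Here no CR-old mouse reached an AL-old mouse, and the difference of -36.8 points ranked 29.

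In all 4 cases both CR-old females had more methylation than each CR-old male. The CR-old female and male means were 52.8 and 18.2% in Gfod1, 41.3 and 17.9% in Sdk2, and 54.8 and 22.3% at the Gm12474 index site (n = 2 females and 3 males). The females were 32 months old and the males 34 to 38 months, so sex and age cannot be told apart in this group. Within females the CR-old minus AL-old difference was -28.5 points in Gfod1, -31.4 in Sdk2 and -18.6 in Gm12474, and within males it was -54.7, -51.3 and -55.8 points.

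The adjusted values gave larger mean differences and lost the separation. The differences became -50.0 points in Gfod1, -49.9 in Sdk2 and -45.6 at the Gm12474 index site. CR-old 06, which had a factor of 1.80, moved to 70.27% in Gfod1 and 57.8% in Sdk2, above AL-old 25, at 60.71 and 48.77%. The same pair overlapped at the second Gm12474 site, at 69.72 and 59.05%. In the mice with a factor under 1.3, which left 2 AL-old and 4 CR-old mice, the raw differences were -47.1, -45.9 and -48.5 points.

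**Figure D1:**
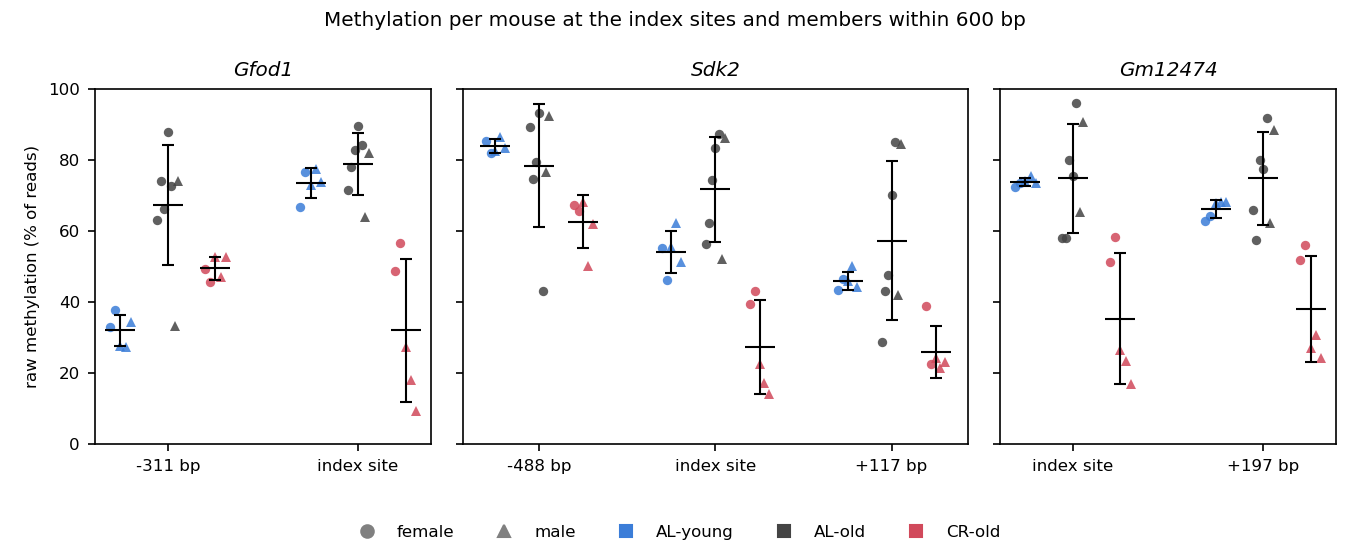
Raw methylation (% of reads, vertical axis) of every mouse at the index sites and at members within 600 bp, with distance from the index site below each set. Each point is 1 mouse (circles female, triangles male), bars are mean ± SD, and the sets run AL-young, AL-old, CR-old. CR-old points lie lowest at the Gfod1 and Sdk2 index sites and at the second Gm12474 site, overlap AL-old at the Gm12474 index site, and 311 bp away in Gfod1 lie between 45.66 and 52.72%, above all AL-young mice.

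The reads showed how closely such adjacent sites are tied. A sequenced fragment runs from 1 CCCGGG site to the next, so both ends of the same fragments are counted as separate sites. In the Gfod1 pair the ratio of reads between the sites was 0.942 to 1.12 over the 17 mice, and in the Gm12474 pair 0.964 to 1.07. In Sdk2, reads at the middle site, which borders fragments on both sides, were matched by the sum of its 2 flanking sites, with a ratio of 0.965 to 1.11. Most of that sum came from the site 117 bp away, as reads at the site 488 bp away were 0.069 to 0.217 of those at the middle site. The Gfod1 and Gm12474 pairs and the Sdk2 pair 117 bp apart were thus read largely from the same fragments, and are not independent measurements of a region. The Sdk2 site 488 bp away shared only a small part of the index site's reads.

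**Figure D2:**
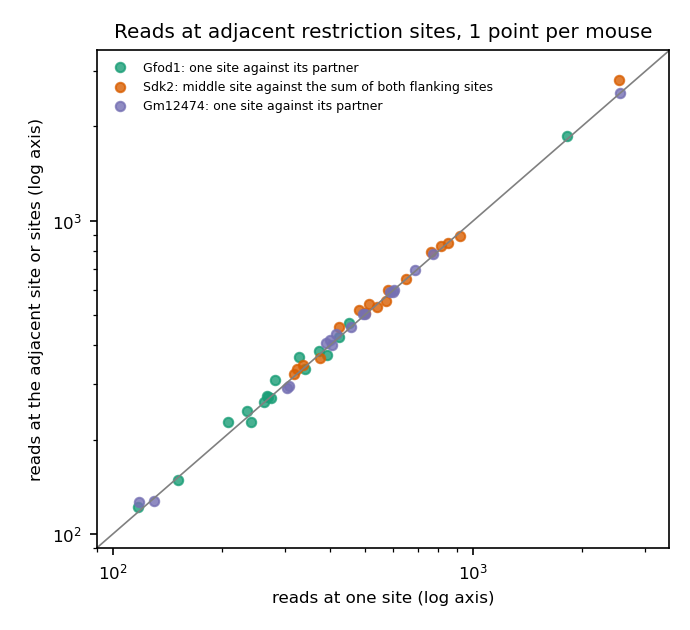
Reads at adjacent sites in each of the 17 mice, both axes logarithmic, 1 point per mouse and gene, with the line of equality. For Sdk2 the vertical axis is the sum over both flanking sites. All points lie along the line, with ratios between 0.942 and 1.12.

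Beside the index sites, 24 neighbouring members remained after the second Gm12474 site was also set aside. The difference under restriction was carried to the adjacent ends to an unequal degree. At the Sdk2 site 117 bp away, in the adjoining intron, AL-young had 46.0% ± 2.55 (SD, n = 5), AL-old 57.3% ± 22.4 (SD, n = 7, lowest 28.78, median 47.69, highest 85.13) and CR-old 26.0% ± 7.32 (SD, n = 5). The CR-old mice had 38.99, 22.4, 24.1, 21.51 and 23.03%, and AL-old 08 at 28.78% was the 1 AL-old mouse inside their range. Its difference of -31.3 points was 70.4% of that at the index site. The adjusted difference was -39.9 points and on that scale the groups did not overlap, with CR-old up to 36.12% and AL-old from 38.68%.

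On the other side, 488 bp from the Sdk2 index site, methylation was 83.9% ± 1.89 in AL-young, 78.3% ± 17.3 in AL-old and 62.6% ± 7.42 in CR-old (SD, n = 5, 7 and 5), a difference of -15.7 points under restriction. The CR-old mice had 67.2, 65.6, 68.14, 50.0 and 62.0%, and the 1 AL-old mouse below them was AL-old 14 at 43.0%. Reads here ran from 22 to 489 per mouse. At both of these Sdk2 sites every CR-old mouse lay below every AL-young mouse, which held for 2 of the 24 neighbours, against 6.4% of all sites. The CR-old and AL-young means differed by -21.3 points (log2 odds ratio -1.65 ± 0.70 SE, adjusted p = 0.664) and, at 117 bp, by -20.0 points (-1.31 ± 0.69 SE, adjusted p = 0.698), neither past the threshold of the edgeR quasi-likelihood test. In a fit of only these 2 groups, without the AL-old mice, both passed it (adjusted p = 0.00536 and 0.0136), as did 5.87% of all sites in the same direction.

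In Gfod1 the nearest neighbour, in the same intron and 311 bp away, had another pattern. The AL-young mice had 33.01, 37.64, 27.66, 27.41 and 34.29%, 32.0% ± 4.42 (SD, n = 5). The AL-old mice ranged from 33.27 to 87.74% with a median of 72.64%, 67.3% ± 16.9 (SD, n = 7), and 6 of the 7 exceeded all AL-young mice. The CR-old mice had 49.13, 45.66, 52.72, 47.01 and 52.58%, 49.4% ± 3.20 (SD, n = 5), a narrow band above every AL-young mouse. AL-old 25, at 33.27%, lay below all CR-old mice, and the other 6 AL-old mice, from 63.01%, lay above them. Methylation rose from AL-young to AL-old by 35.3 points (log2 odds ratio 2.27 ± 0.63 SE, edgeR adjusted p = 0.0111), a call not made in females or males alone, with high correction as a covariate, or in mice with a factor under 1.3. CR-old exceeded AL-young by 17.4 points (adjusted p = 0.730, or 0.0433 with only these 2 groups in the fit, which called 0.758% of all sites higher) and differed from AL-old by -17.9 points, which was 38.2% of the index site's difference. The ends of 1 Gfod1 fragment therefore had group means on opposite sides of AL-young in CR-old, with differences of 17.4 and -41.4 points. At the neighbour, AL-old and CR-old means were 72.7 and 47.4% in females (n = 5 and 2). In males they were 53.7 and 50.8% (n = 2 and 3). The 2 AL-old males had 33.27 and 74.16%, on either side of the CR-old males (47.01 to 52.72%). The closeness of the male means therefore does not show whether the difference was absent in males.

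Farther from the index sites no drop of comparable size in points was seen under restriction. In Gfod1 the sites 37020 and 37453 bp away, also intronic, had 45.1 and 59.5% in AL-young, 51.7 and 66.0% in AL-old and 55.5 and 68.4% in CR-old, so CR-old minus AL-old was 3.82 and 2.42 points in raw values and -2.27 and -3.86 points in adjusted values. These sites had from 26 reads in a mouse, and at 20 reads a level of 50% has a 95% Wilson interval of 29.9 to 70.1%, for counting error only. In Sdk2 the sites 15449 and 15348 bp away on the other side were nearly fully methylated, between 95.89 and 99.82% in every mouse, with differences of -1.55 and -0.559 points. At the first, CR-old 02, 19, 20 and 22 had 96.1, 96.8, 96.71 and 97.04%, below every AL-old mouse (lowest 97.74%), and CR-old 06 had 99.26%. Its log2 odds ratio for CR-old against AL-young was -1.16 ± 0.72 SE (edgeR adjusted p = 0.730). At the second the CR-old range, 95.89 to 99.26%, spanned that of AL-old. Differences in points are compressed near 100%. Gm12474 had no other passing site beyond its pair and its start region.

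**Figure D3:**
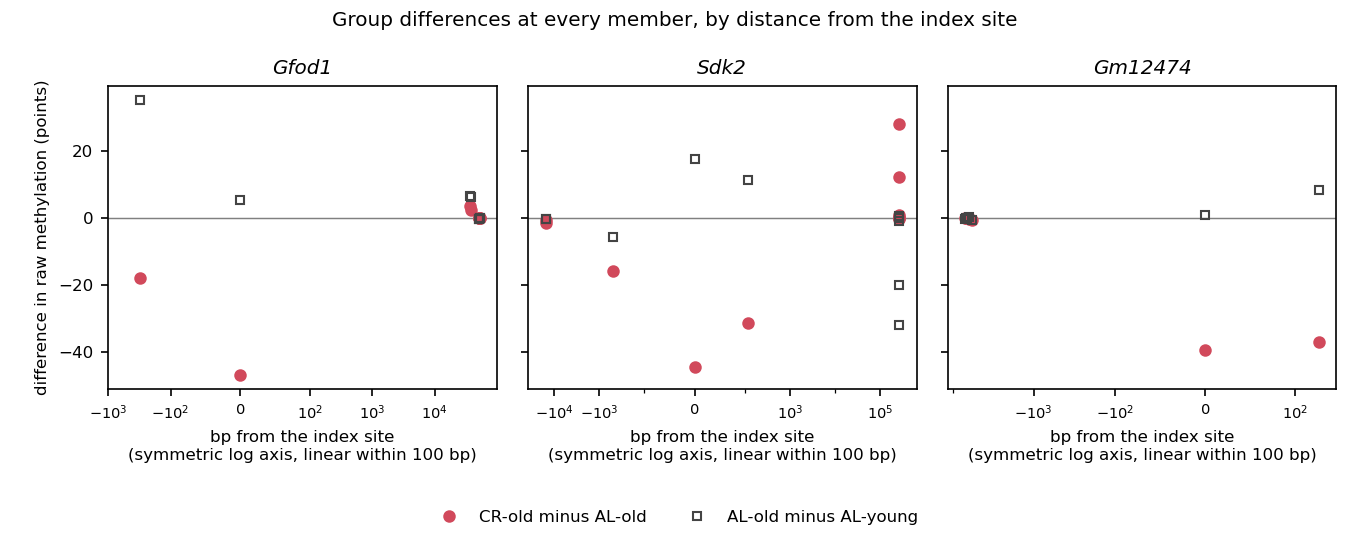
Differences in mean raw methylation (points, vertical axis) at each of the 28 members against distance from the index site of its gene (bp, symmetric log axis). Filled circles are CR-old minus AL-old, open squares AL-old minus AL-young. The large negative CR-old minus AL-old differences lie within 488 bp of an index site. In Sdk2 a pair 256117 and 256400 bp away has differences of 28.03 and 12.2 points the other way. The AL-old minus AL-young differences of that pair are -31.9 and -19.9 points.

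The remaining large difference in Sdk2 ran in the other direction. At the sites 4537 and 4254 bp inside the gene start, in an intron, AL-young had 77.0% ± 1.11 and 33.0% ± 3.48 (SD, n = 5). The AL-old mice had 36.75, 62.7, 33.68, 9.51, 25.89, 80.6 and 66.13% at the first, 45.0% ± 25.3, and 13.86, 7.71, 6.03, 0.2, 10.23, 47.11 and 6.83% at the second, 13.1% ± 15.6 (SD, n = 7). All AL-old mice but AL-old 25 lay below every AL-young mouse at both. Methylation was lower with age, at -31.9 points (log2 odds ratio -2.12 ± 0.69 SE, edgeR adjusted p = 0.0333) and -19.9 points (-2.42 ± 0.73 SE, adjusted p = 0.0196).

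CR-old mice at this pair had 73.1% ± 3.08 (68.68 to 75.88%) and 25.3% ± 5.51 (18.11 to 30.57%, SD, n = 5), 28.03 and 12.2 points above AL-old. Their differences from AL-young were -3.90 and -7.66 points (edgeR adjusted p = 0.997 and 0.857). The AL-old means were 33.7 and 7.61% in the 5 females, all with a high factor and 29 to 30 months old. The 2 males, 33 months old, had 80.6 and 66.13% at the first site but 47.11 and 6.83% at the second, where AL-old 27 lay within the female range. Sex, age and the correction factor cannot be told apart within AL-old. Neither call was kept when the factor entered the fit as an offset or a covariate, in mice with a factor under 1.3, in females or males alone, or in a fit of only AL-old and AL-young. Adjusted AL-old means were 55.9 and 17.6%, against adjusted AL-young means of 77.6 and 33.9%. The reads of this pair also had a ratio near 1 in every mouse, 0.980 to 1.14, so it too is largely 1 fragment.

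**Figure D4:**
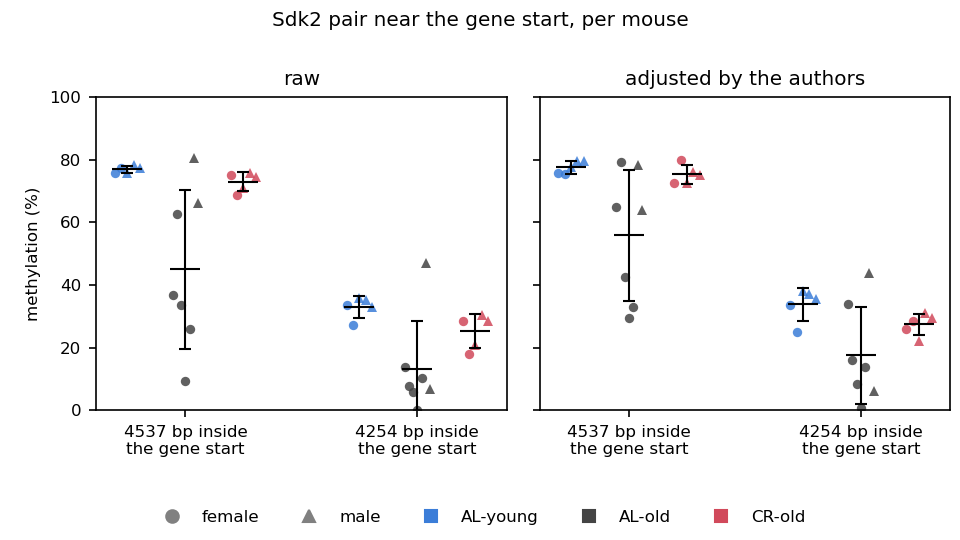
Raw (left) and adjusted (right) methylation (%) at the Sdk2 pair near the gene start for each mouse, with circles for females, triangles for males and bars for mean ± SD. AL-old mice scatter from 9.51 to 80.6% in raw values at the first site, whereas CR-old mice stay between 68.68 and 75.88%, near the AL-young mice.

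The start regions were nearly unmethylated in all groups. In 14 of the 28 members, every mouse had below 5%: 5 in Gfod1, 4 in Sdk2 and 5 in Gm12474, of which 4 lay upstream inside Fam46c. In Gfod1 these sites reached at most 0.48%, with the member nearest the start, just upstream, between 0.02 and 0.13%. In Gm12474 the site 193 bp inside the gene had 3 methylated reads of 976 over all mice (4.69% in AL-young 28 came from 1 of 31 reads), and the upstream site with the fewest reads had 0 of 893, which allows up to 0.336%. In Sdk2 the site 76 bp inside the gene ranged from 0.06 to 3.61%. The Sdk2 site 280 bp inside the gene was under 2% in all mice except 1 AL-old mouse at 5.56%. All 14 CpG-rich members were start-region sites, with CR-old and AL-old means less than 1 point apart.

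Counted over the 24 neighbours, edgeR called 1 site higher and 2 lower in AL-old than AL-young, against 3.72% and 6.02% of all tested sites. By unadjusted p under 0.05 these were 1 higher and 4 lower (22.1% of all sites in either direction), and limma on the log odds called 3 sites in all (8.39% of all sites). For CR-old against AL-young the count was 0 in each direction, as it was over all sites (0.0% higher and 0.0% lower, smallest adjusted p 0.0857). Unadjusted p-values under 0.05 numbered 2 of 24, both lower, beside 6.93% of all sites, and limma called 0 neighbours and 0 sites in all. The contrasts share mice and are not independent.

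CR-old against AL-old was the contrast that picked the genes. Its calls at members, 4 of 28 lower and 0 higher beside 1.64% lower and 1.54% higher over all sites, were at the index sites and the second Gm12474 site, were set by that choice, and nothing is read from them. Among the 24 neighbours edgeR called 0, with unadjusted p under 0.05 at 2 higher and 1 lower (15.3% of all sites in either direction), and limma called 0 (2.05% of all sites). By limma, unadjusted p was under 0.05 at 8 of the 24. The share of all sites at that limma level is not given here, so nothing is read from the 8. The 3 members where every CR-old mouse lay below every AL-old mouse in raw values were the sites that had listed the genes, so that their number was fixed. None of the 24 neighbours had this separation, which 0.767% of all sites had. The median difference over the neighbours was 0.045 points in Gfod1, -0.019 in Sdk2 and -0.041 in Gm12474, and over all 22561 sites it was -0.0406. However, 5 of 8 neighbours in Gfod1, 4 of 11 in Sdk2 and 5 of 5 in Gm12474 had below 5% in every mouse. No large drop was possible at those sites, so the medians do not answer whether the difference extended.

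The same pattern was listed over the whole series for comparison, as a description. In all, 34 sites were called lower under restriction without overlap and with at least 100 reads in all mice, including 1 in each of these genes. AL-young mice averaged under 10% at 22 of the 34 and at least 50% at 12. The CR-old mean was at least 10 points below the AL-young mean at 4 of the 34, among them the 3 in these genes. At the 31 elsewhere the median difference from AL-old was -9.24 points. Of these, 30 had another site within 500 bp, and the nearest was lower in CR-old in all 30, by 0.215 to 610% of the own difference (median 60.0%, and at least 50% at 17 of the 30). For the sites that listed the genes here, the shares were 38.2% in Gfod1, 70.4% in Sdk2 and 107% in Gm12474. In Gm12474 the nearest site is the index site, defined by the most negative difference. Its share could therefore not be smaller than the whole. Around the 31 sites the median difference of other sites was -4.90 points within 500 bp, -7.09 beyond that up to 5000 bp, -0.346 up to 50000 bp and 0.023 up to 300000 bp. Only 30, 12, 11 and 18 of the 31 sites had another site in these ranges. Because these sites were all chosen on the same contrast, no test was made of them. A nearby site could itself be 1 of the chosen sites, or the other end of the same fragment. The median over all sites was also below 0, at -0.0406 points, so the 30 of 30 is a description only.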

How the data were processed

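DREAM libraries of whole blood DNA from 17 mice were used, 5 AL-young, 7 AL-old and 5 CR-old by the labels, each mouse being 1 sample. The authors mapped reads to mm9 and deposited, per CCCGGG site, counts of methylated and unmethylated reads and the raw and adjusted percent of methylation, the latter set by spiked standards. To form the raw percent, 0.5 had been added to the methylated count and 1 to the total. The submitters' processing notes name Bowtie2, SAMtools, mm9 and mm10. All site positions lay on CCCGGG in NCBIM37 (mm9), and genes came from GENCODE release M1. Reads without molecular identifiers are not independent molecules, so intervals cover counting error only.

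The members and lists were chosen with earlier results of these data known. Autosomal sites reaching 20 reads in 13 or more mice were tested with the edgeR 4.0.16 quasi-likelihood test in R 4.3.3 on the counts, with 1 coefficient per mouse, 1 dispersion and Benjamini-Hochberg adjustment over 22561 sites. A call needed an adjusted p under 0.05 and raw group means at least 2 points apart. The SE given with a log2 odds ratio was its absolute value divided by the square root of the F statistic of this test. All 17 mice entered the fit, and values under 20 reads were left out of means but not of the fit. limma 3.58.1 on log odds (0.5 added to each count) was an alternative. In simulated AL-old against AL-young data on 4000 sites, edgeR recovered 185 of 200 changed sites with 1 false call. The simulation gave all groups the same spread between mice and all changes the same size. In the data AL-old mice were often spread wider than AL-young mice, so it does not measure recovery or false calls here. Named sites were the index site, its nearest member on each side, called members (up to 10 per gene), the member nearest the gene start and the member with the next most negative difference. The second Gfod1 site 37 kb away, the Sdk2 pair 15 kb away, the Sdk2 site with 5.56% and the upstream Gm12474 site with 0 methylated reads were named after their values were seen. The index rule picked a different Gm12474 site from the one that listed the gene, so both were kept out of the neighbours and nothing is read from the calls at either. The 64 sites left out had few reads: in Gfod1 and Gm12474 none had 20 reads in any mouse, and the closest in Sdk2 had 20 reads in 11 mice, while the member that passed most narrowly, in Gm12474, had them in 13. Other steps used Python 3.11.15, numpy 2.4.6, pandas 2.3.3, scipy 1.17.1 and matplotlib 3.10.9.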

Additional observations from a re-analysis of the deposited data

Results flagged for a closer look

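Among 39 groups of 4 to 10 mice at the named sites, 6 held a mouse standing apart from the rest of its group by Dixon's criterion, which chance alone exceeds in about 1 group in 20. In Sdk2, AL-old 25 had 47.11% at the site 4254 bp inside the gene start (other AL-old mice 0.2 to 13.86%), AL-old 14 had 43.0% at the site 488 bp from the index site (others 74.66 to 93.06%), and CR-old 02 had 38.99% at the site 117 bp from it (others 21.51 to 24.1%). The other 3 concerned values near 0 in start regions, where AL-old 08 had 0.13% in Gfod1 (others 0.03 to 0.07%), AL-young 30 had 0.54% in Sdk2 (others 0.98 to 1.12%) and CR-old 02 had 1.67% in Gm12474 (others 0.81 to 0.94%). In Gm12474 all 5 CR-old mice had 0 methylated reads, CR-old 02 of 29 and the others of 52 to 61, so that the values differ only by the 0.5 added to the methylated reads. The 0.13% in Gfod1 came from 1 methylated read of 1187.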

How the results depend on the processing

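No paired analysis was possible because the groups share no mouse numbers. The Gfod1 rise with age, 1 site, kept its call with the correction factor as an offset, in a fit of only the 2 groups, with limma, with minimums of 100 or 10 reads, with no minimum difference, and without any 1 mouse (1 to 1). With high correction as a covariate, in females only and in males only the count was 0, and in mice with a factor under 1.3 it was 2, both other sites at the Sdk2 start (8.44% of all sites). The 2 Sdk2 sites that fell with age numbered 0 with the offset, the covariate, mice under 1.3, only the 2 groups, females or males. Without 1 mouse they numbered 1 to 2, the site 4537 bp inside losing its call without any AL-young mouse or without AL-old 08, 10, 13 or 14. For CR-old against AL-young the higher count of 0 became 1 (the Gfod1 neighbour) with only those 2 groups in the fit, and the lower count became 2 (the Sdk2 sites 488 and 117 bp away) there and 1 (488 bp) in mice under 1.3, while over all sites the higher calls went from 0 to 0.758% and the lower from 0 to 5.87 and 2.06%. Without 1 mouse both stayed at 0. For CR-old against AL-old the lower count became 1 (the Sdk2 site 117 bp away) with the offset and ranged from 0 to 1 without 1 mouse (1 without AL-old 08 or 25), and the higher count ranged from 0 to 2 (2, the Sdk2 start pair, without AL-old 25). The index differences ranged without 1 mouse from -53.0 to -41.1 points in Gfod1, -48.4 to -41.2 in Sdk2 and -45.2 to -34.9 in Gm12474, and in females only were -28.5 in Gfod1 and -18.6 in Gm12474. The neighbours' medians ranged from -0.007 to 0.058, -0.195 to -0.009 and -0.052 to -0.011, and the Gfod1 median was -0.096 in adjusted values. The cause of these changes was not tested. Fits with fewer mice have fewer degrees of freedom. At 100 reads a level of 50% has an interval of 40.4 to 59.6%.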

Other observations

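The relatives of these genes, Gfod2 for Gfod1 and Sdk1, Dscam and Dscaml1 for Sdk2, held 27 passing sites by the same windows. In AL-old against AL-young, edgeR called 1 of the 27 higher (in Dscam) and 5 lower (4 in Dscaml1 and 1 in Dscam), beside 3.72 and 6.02% of all sites. In CR-old against AL-old, 1 site in Dscaml1 was called higher, at 34.5 points above AL-old, and 0 were called lower, beside 1.54 and 1.64% of all sites. The most negative difference under restriction among these sites was -11.9 points in Sdk1, and Gfod2 had 2 sites at -9.81 and -0.647 points.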
